A study of Homo sapiens with 6 samples.

Results

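The amino acid transporters described here are 10 genes of the solute carrier families, read by 40 of the 49395 probe sets deposited for SH-SY5Y cells exposed to manganese. A probe set was taken when the platform annotation gave it exactly 1 gene symbol and that symbol was SLC7A11, SLC7A5, SLC3A2, SLC7A1, SLC7A8, SLC1A4, SLC1A5, SLC38A1, SLC38A2 or SLC43A2. The rule uses no measured value, but the genes were picked with earlier results of these data known. SH-SY5Y is a human neuroblastoma line, and all cultures grew in a mix of MEM and F12 that held 10% fetal bovine serum, per the labels. The 3 control cultures were untreated, and the 3 manganese cultures received 100 µM manganese for 24 h, a dose stated to be the LC50 (the concentration that kills 50% of cells) over 5. Each culture was read on 1 Affymetrix array, from total RNA. Replicates are labelled as biological, without saying whether the cultures were started apart, so p-values measure the spread between these arrays.

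Amino acid transporters of the plasma membrane are of several kinds. Exchangers of the SLC7 family are light chains that reach the membrane bound to the heavy chain encoded by SLC3A2, also known as CD98 or 4F2hc. SLC38A1 and SLC38A2 take up small neutral amino acids with sodium, and cells use the resulting gradient of glutamine to load the exchangers. SLC1A4 and SLC1A5 exchange small neutral amino acids. Several of these genes are known targets of ATF4, the transcription factor made when cells sense a lack of amino acids or stress in the endoplasmic reticulum. SLC7A11 and SLC3A2 are also targets of the antioxidant factor NRF2, and SLC7A5 and SLC1A5 of MYC. SLC7A11 brings in cystine, which cells use for glutathione, and releases glutamate.

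Sequence around the transcription starts is shown because the regulators named above are known to bind such elements. The sequences come from RefSeq, build GRCh38.p14. The array files name no genome build. RefSeq start windows, each from 250 bases before to 50 bases after a start, were at hand for 9 of the 10 genes, 20 windows in all. SLC7A11 had none. The core of the C/EBP-ATF response element, to which ATF4 binds, was searched as TGATGNAA on both strands. It lay in 5 of the 20 windows and in 5 of the 9 genes. Among all 35116 RefSeq windows 3.62% held it, and among all genes with a window 4.46% did. The 5 matches are printed with their neighbouring bases on the strand of the gene, with the match in capitals, as pieces of 30 bases.
SLC3A2, the heavy chain, chr11:62881719-62881748, plus strand: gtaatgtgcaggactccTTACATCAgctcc
SLC7A1, chr13:29595663-29595692, minus strand: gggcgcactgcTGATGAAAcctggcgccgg
SLC1A4, chr2:64989381-64989410, plus strand: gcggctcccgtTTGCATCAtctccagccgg
SLC1A5, chr19:46784893-46784922, minus strand: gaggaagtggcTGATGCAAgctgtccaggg
SLC38A1, chr12:46266502-46266531, minus strand: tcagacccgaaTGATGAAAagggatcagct

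In SLC3A2 and SLC1A4 the letters run on the strand opposite to the gene, and in the other 3 genes on the same strand. The match in SLC1A5 began 97 bases before the start in 1 of the 3 windows of that gene. In SLC1A4 and SLC38A1 the match spanned the start, and in SLC7A1 and SLC3A2 it lay just downstream, beginning at base 8 and base 38. For SLC1A5 the matches of the motifs that follow lay in the window of another start. The core of the antioxidant response element, TGACNNNGC on both strands, lay in 4 of the 20 windows, against 13.3% of all windows, and in 4 of the 9 genes, SLC3A2, SLC7A1, SLC7A5 and SLC1A5, against 16.1% of all genes with a window. The E-box CACGTG, read by MYC among others, lay in 3 of the 20 windows, against 7.26% of all windows, and in 3 of the 9 genes, SLC7A5, SLC1A5 and SLC7A8, against 8.77% of all genes with a window. No match of one motif overlapped a match of another in these windows. The 250 bases upstream of the SLC3A2 start whose window held both the first and the second motif are printed because SLC3A2 was the transporter with the smallest p. Capitals mark the antioxidant core.
SLC3A2, chr11:62881449-62881698, plus strand: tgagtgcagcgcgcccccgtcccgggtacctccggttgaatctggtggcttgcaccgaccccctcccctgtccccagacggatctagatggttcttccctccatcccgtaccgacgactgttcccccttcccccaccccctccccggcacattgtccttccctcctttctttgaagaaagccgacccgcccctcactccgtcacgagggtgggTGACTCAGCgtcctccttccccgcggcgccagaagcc

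These letters describe the windows and do not show that a factor was bound in the cells. The arrays gave no reading of binding.

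The values are log2 signals after RMA, a method that gives all arrays the same distribution of probe intensities. Levels of different probe sets are not compared as amounts of transcript. Among the 6 arrays control 1 stood apart, with correlations of 0.967 to 0.981 with the others over 13407 genes (Pearson, across genes). Poly(A) control RNA spiked into the samples, read by 12 probe sets, averaged 5.83 to 6.04 in control 1 and control 3 and 7.59 to 7.75 in control 2 and the 3 manganese arrays. Each transporter is therefore given also as the difference between the manganese mean and control 2. Of 14 markers of noradrenergic neuroblasts, 13 had a probe set, and their mean lay between 11.04 and 11.16 on every array. Of 6 immune markers 5 had a probe set, and their mean was 4.30 to 4.35 in controls and 4.35 to 4.51 in manganese. PTPRC, which defines leukocytes, lay between 2.68 and 2.92, below the 40th percentile of the arrays, while CD68, CD3E and AIF1 passed the filter on low values. All manganese arrays lay above all controls for PTPRC, CD3E and AIF1, where 10.5% of all genes tested were higher without overlap. Of 6 glial markers 4 had a probe set, and their mean was 5.47 to 5.61 in controls and 5.46 to 5.56 in manganese. Mesenchymal markers averaged 5.68 to 5.98 in controls and 5.63 to 5.70 in manganese. Among neuroblast markers DDC and SYP were higher without overlap, and GATA2 and STMN2 lower. Among mesenchymal markers COL1A1 was higher without overlap, and COL1A2, PDGFRA and PDGFRB were lower. Of all genes tested 9.26% were lower without overlap. STMN2 differed by -0.71 and PDGFRA by -0.82, and against control 2 by -0.27 and -0.35. No marker of the 4 lists passed the gene test, and their part in the transporter values was not tested.

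Across the 10 transporter genes no change passed the threshold after 24 h of manganese. All 10 were tested, each through its brightest probe set, in a limma fit over 13407 genes in which 0.142% of genes passed an adjusted p of 0.05. The limma adjusted p of the transporters ranged from 0.332 to 0.934. At an unadjusted p under 0.05 there was 1 transporter, SLC3A2, against 12.8% of all genes. It was also the only one of the 10 whose groups did not overlap, against 19.8% of all genes. Log2 fold changes, manganese minus control, were positive for 6 transporters and negative for 4, and 54.1% of all genes were positive. Their median was 0.04 against 0.02 for all genes tested. The 95% intervals of the 10 genes, each taken singly, lay between -0.99 and 0.73. None therefore reached a doubling or a halving, and 9 of the 10 held 0. In bulk RNA, fewer cells carrying a transcript and less transcript per cell cannot be told apart.

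**Figure D1:**
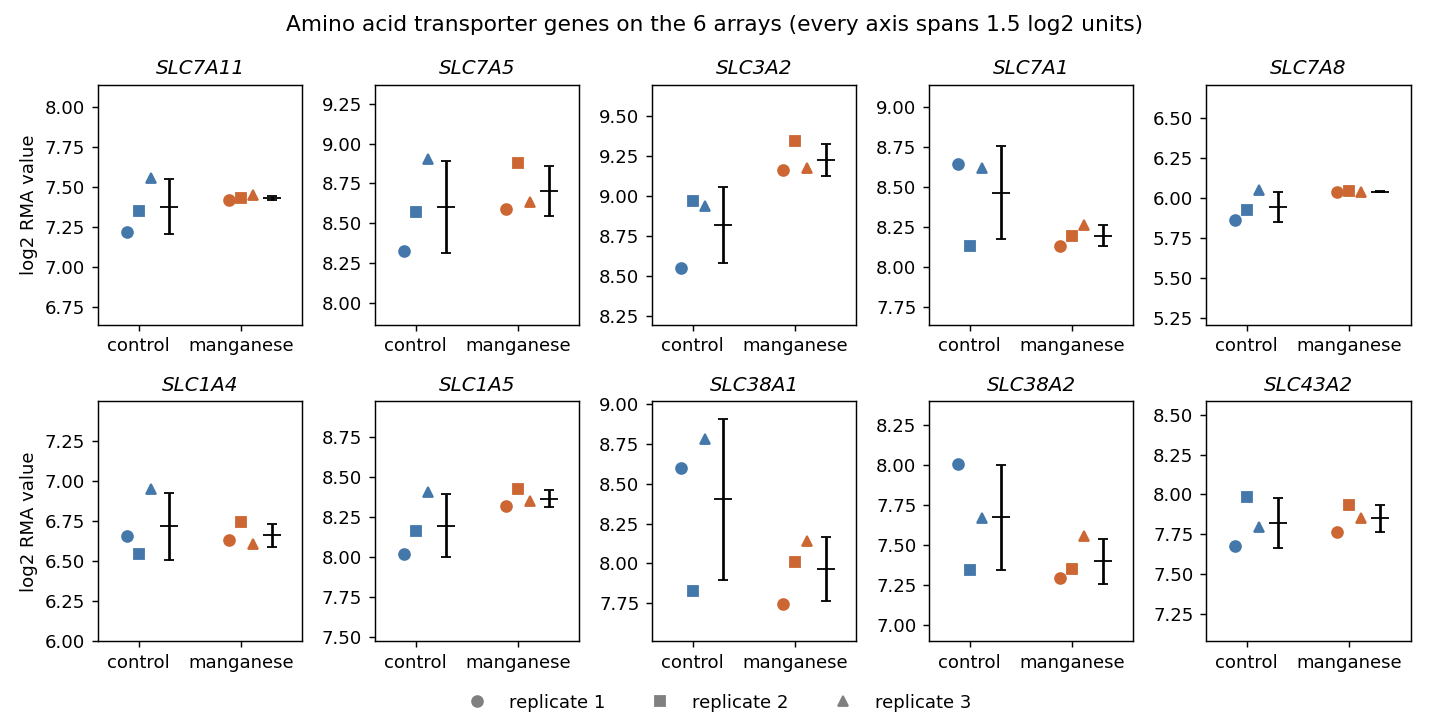
Log2 RMA value of the probe set that stands for each of the 10 transporter genes, for 3 control (blue) and 3 manganese (orange) arrays, with symbols for the replicate number and black bars for the mean and SD. Every axis spans 1.5 log2 units, and only SLC3A2 has all manganese arrays above all controls.

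SLC3A2 encodes the heavy chain that carries the SLC7 light chains to the cell surface and holds them there. On its brightest probe set the controls were at 8.55, 8.97 and 8.94 (control 1, 2 and 3) and the manganese arrays at 9.17, 9.34 and 9.18. All manganese arrays lay above all controls, and control 1 was the lowest of the 6. Group means were 8.82 ± 0.24 and 9.23 ± 0.10 (SD, n = 3). They differed by 0.41 ± 0.14 (SE) on the log2 scale, with a 95% interval of 0.08 to 0.73. That is a 1.33-fold difference, with an unadjusted p of 0.0203 and a limma adjusted p of 0.332, which did not pass. Against control 2 the difference was 0.25, and without control 1 it was 0.27.

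SLC3A2 is the best covered of the 10 genes, with 7 probe sets that all passed the filter on dim probe sets. All 7 differences were positive, from 0.24 to 0.41, and the groups of 5 did not overlap, against 19% of all probe sets passing the filter. The 7 probe sets read the same transcripts in the same RNA, so they are not separate replicates. In the fit over 29871 probe sets, 4 of the 7 had an unadjusted p under 0.05, against 12.5% of all probe sets, and the lowest adjusted p was 0.341. Each of the 7 had its lowest value in control 1 and its highest in manganese 2. Against control 2 all 7 differences were smaller, with 3 between 0.23 and 0.30, 3 between 0.10 and 0.15 and 1 at -0.07. The brightest probe set is of the type that Affymetrix marks as able to bind other transcripts. With that type left out the gene was at 0.26, with a limma adjusted p of 0.413.

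**Figure D2:**
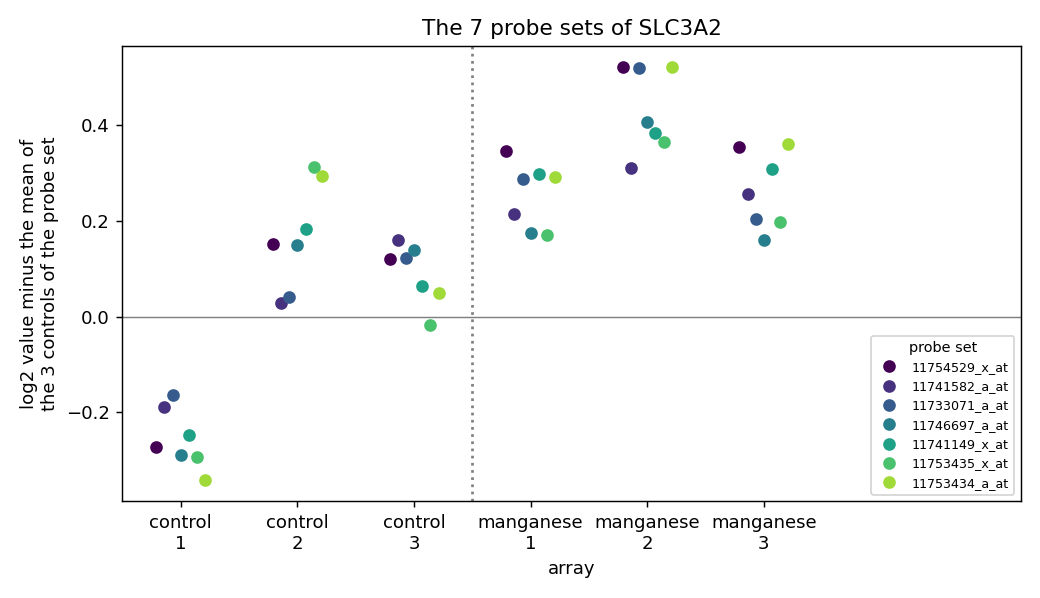
Values of the 7 probe sets of SLC3A2 on each array, as log2 value minus the mean of that probe set in the 3 controls, with 1 colour per probe set and the dotted line between control and manganese arrays. All 7 are lowest in control 1, and their manganese means are 0.24 to 0.41 above the control means.

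The 3 light chains of SLC3A2 among the 10 genes, SLC7A11, SLC7A5 and SLC7A8, showed smaller differences, all with overlapping groups on the probe set that stands for the gene. SLC7A11 is the light chain of the cystine and glutamate exchanger xCT. It was at 7.22, 7.35 and 7.56 in the controls and at 7.42, 7.43 and 7.45 in manganese. The manganese arrays lay close together inside the range of the controls. The log2 fold change was 0.06 ± 0.12 (SE), with a 95% interval of -0.21 to 0.33 and a limma adjusted p of 0.868. It was 0.08 against control 2 and turned to -0.02 without control 1. The other 2 probe sets of SLC7A11 lay below the 40th percentile on all 6 arrays, with differences of 0.13 and 0.09, so this gene rests on 1 probe set.

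SLC7A5, or LAT1, exchanges large neutral amino acids such as leucine. Its controls were at 8.33, 8.57 and 8.90 and its manganese arrays at 8.59, 8.88 and 8.63. Control 3 was the highest of the 6 arrays and control 1 the lowest. On average SLC7A5 differed by 0.10 ± 0.16 (SE), with an interval of -0.28 to 0.48 and a limma adjusted p of 0.830. The second probe set of SLC7A5 gave a larger difference, 0.26, from 7.10, 7.34 and 7.12 to 7.42, 7.54 and 7.38. Its groups did not overlap, and its adjusted p over all probe sets was 0.408. Against control 2 that probe set differed by 0.11 and the brighter one by 0.13.

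SLC7A8, or LAT2, also exchanges neutral amino acids but handles small ones too. It had 4 probe sets, 3 of which passed the filter. On the brightest the controls were at 5.87, 5.93 and 6.05 and the manganese arrays at 6.04, 6.04 and 6.04. SLC7A8 differed by 0.09 ± 0.10 (SE), with an interval of -0.14 to 0.33 and a limma adjusted p of 0.720. The 4 probe sets differed by 0.05 to 0.21, all with overlapping groups. Whether SLC3A2 differed more than its light chains was not tested.

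SLC7A1, or CAT1, takes up arginine, lysine and ornithine and needs no heavy chain. The controls were at 8.64, 8.13 and 8.62 and the manganese arrays at 8.13, 8.19 and 8.26. Control 2 lay among the manganese arrays, while control 1 and control 3 stood above them. SLC7A1 differed by -0.27 ± 0.15 (SE), with an interval of -0.62 to 0.08 and a limma adjusted p of 0.483. Against control 2 the sign turned, at 0.06. The other 2 probe sets of SLC7A1 that passed the filter differed by -0.01 and 0.04, and the dim remaining one by 0.10.

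SLC1A4 and SLC1A5 exchange alanine, serine, cysteine and other small neutral amino acids, and SLC1A5, or ASCT2, is a main glutamine carrier of tumour cells. SLC1A5 was at 8.02, 8.16 and 8.41 in the controls and at 8.32, 8.42 and 8.35 in manganese. Control 3 lay within the manganese range and the other 2 controls below it. The log2 fold change was 0.17 ± 0.13 (SE), with an interval of -0.12 to 0.46 and a limma adjusted p of 0.587. Its 3 probe sets differed by 0.06 to 0.17. Against control 2 the brightest was at 0.21.

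SLC1A4, or ASCT1, had probe sets on both sides of 0. On the brightest the controls were at 6.65, 6.54 and 6.95 and the manganese arrays at 6.63, 6.74 and 6.60. The groups overlapped, and the log2 fold change was -0.06 ± 0.13 (SE), with an interval of -0.36 to 0.24 and a limma adjusted p of 0.883. Of its 6 probe sets, all of which passed the filter, 4 had positive differences and the range was -0.10 to 0.25. The mean of the 6 gave 0.07. No direction can be given for SLC1A4 from these probe sets.

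**Figure D3:**
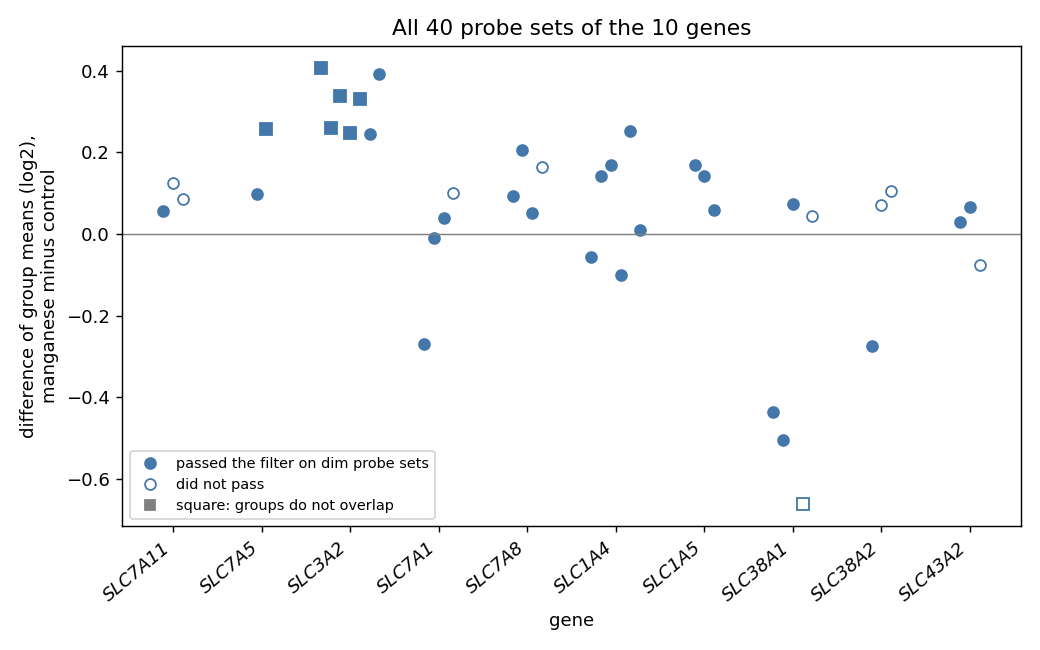
Difference between the manganese and control means (log2) for each of the 40 probe sets, by gene, filled where the probe set passed the filter on dim probe sets and square where the groups did not overlap. The 7 probe sets of SLC3A2 lie between 0.24 and 0.41, while those of SLC1A4 fall on both sides of 0 and the lowest points belong to SLC38A1.

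SLC38A1 and SLC38A2, or SNAT1 and SNAT2, take up glutamine and other small neutral amino acids with sodium, and SLC38A2 is known to be induced when cells lack amino acids. SLC38A1 had the most negative difference of the 10 genes. Its controls were at 8.60, 7.83 and 8.78 and its manganese arrays at 7.75, 8.01 and 8.14. Control 1 and control 3 lay above every manganese array, and control 2 lay among them. Group means were 8.40 ± 0.50 and 7.97 ± 0.20 (SD, n = 3). Their difference was -0.44 ± 0.24 (SE), with an interval of -0.99 to 0.12 and a limma adjusted p of 0.471.

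Against control 2 SLC38A1 differed by 0.14 in the other direction. Its second brightest probe set showed the same order, with controls at 7.62, 6.68 and 7.31, manganese at 6.20, 6.80 and 7.10, and a difference of -0.51 that became 0.01 against control 2. A dimmer probe set that did not pass the filter lay below every control on all manganese arrays. It read 4.87, 3.95 and 4.54 in controls and 3.67, 3.85 and 3.85 in manganese, with only control 1 and control 3 above the 40th percentile. The 2 other probe sets, near or below that percentile, differed by 0.07 and 0.04.

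SLC38A2 was at 8.005, 7.34 and 7.67 in the controls and at 7.29, 7.35 and 7.56 in manganese. Here too control 1 and control 3 were the highest arrays and control 2 lay within the manganese range. The log2 fold change was -0.27 ± 0.17 (SE), with an interval of -0.68 to 0.13 and a limma adjusted p of 0.523, and against control 2 it was 0.05. The other 2 probe sets of SLC38A2 were below the 40th percentile on every array.

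SLC43A2, or LAT4, lets large neutral amino acids leave or enter by facilitated diffusion, without exchange and without SLC3A2. It was at 7.68, 7.99 and 7.80 in controls and at 7.77, 7.93 and 7.85 in manganese, so that every manganese array lay within the control range. SLC43A2 differed by 0.03 ± 0.12 (SE), with an interval of -0.24 to 0.30 and a limma adjusted p of 0.934. A second probe set that passed the filter differed by 0.07. Against control 2 the brighter one was at -0.13.

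The 4 genes with a negative log2 fold change, SLC38A1, SLC38A2, SLC7A1 and SLC1A4, were thus all positive against control 2. Against that array 9 of the 10 genes were positive, with SLC43A2 the exception, and the differences ran from -0.13 to 0.25. All 10 differences use the same 1 control, so their signs are not separate readings. The mean of the 10 genes was lowest in control 2, at 7.68, against 7.71 to 7.97 on the other arrays. Against control 2 the median of the 10 genes was 0.12, and that of all genes tested 0.0068. The share of all genes positive against control 2 was not counted. In SLC38A1, SLC38A2 and SLC7A1 the 2 controls that stood above the manganese arrays were the 2 with the lower poly(A) spike-in signal. A fit with spike-in level as a term gave the same fold changes as control 2 alone. It rests on 1 control at the higher level, so spike-in level and other traits of that array cannot be told apart. With 1 control and no second array at its level, the spread among controls cannot be estimated. The controls also varied more than the manganese arrays. The SD of the controls was the larger in all 10 transporters, with a median of 0.22 against 0.08, and in 74.7% of all genes tested, with medians of 0.19 and 0.11.

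**Figure D4:**
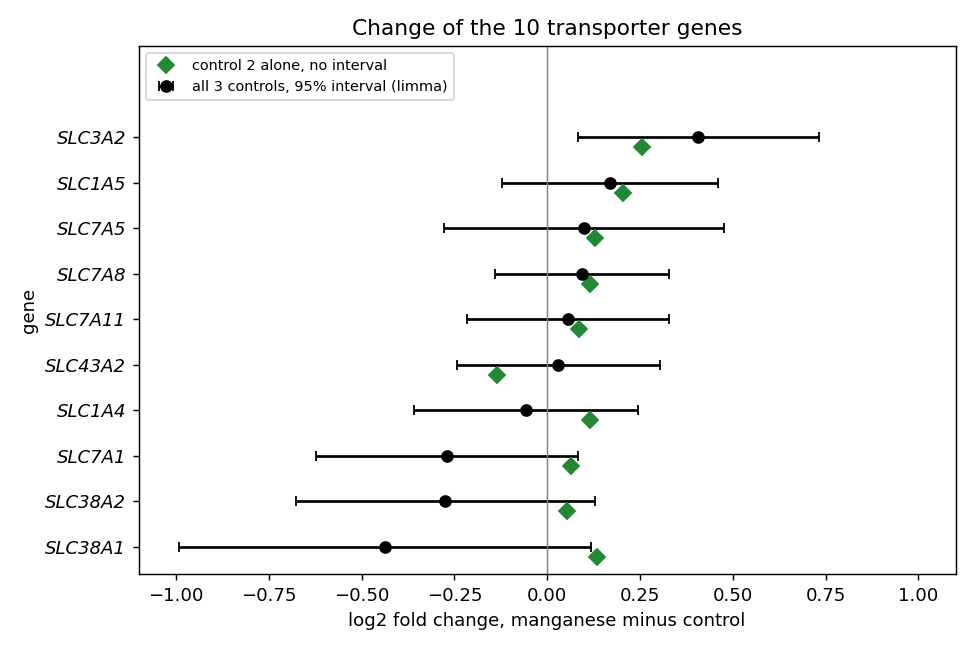
Log2 fold change, manganese minus control, of the 10 transporter genes (black points, with 95% intervals from limma) and the difference between the manganese mean and control 2 (green diamonds, without interval). The interval of SLC3A2, from 0.08 to 0.73, is the only one that leaves out 0, and the 4 genes with negative points have diamonds above 0.

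Over all 40 probe sets, 31 passed the filter and 9 did not. Of the 31, 24 had positive differences, against 52.7% of all probe sets. Probe sets of the same gene are not separate readings, and SLC3A2 alone gave 7 of the 24. By gene, 6 of 10 were positive, against 54.1% of all genes. The groups of 6 of the 31 probe sets did not overlap, all 6 higher in manganese. Among all probe sets passing the filter 9.4% were higher without overlap. Since 5 of the 6 read SLC3A2 and the other SLC7A5, the count is one of 2 genes. No transporter probe set passed the limma test over all probe sets, where 0.107% did, and 4 had an unadjusted p under 0.05, all of SLC3A2.

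Related genes were read from 4 lists. The first held 35 other amino acid transporters of the plasma membrane, of which 27 were tested and 8 were too dim. None passed the threshold. At an unadjusted p under 0.05, 0 were higher and 1 was lower, against 5.97% and 6.85% of all genes, and the median was -0.0058. The lowest p was that of SLC7A6, a further light chain of SLC3A2 that exchanges arginine for neutral amino acids. SLC7A6 went from 5.67, 4.95 and 5.49 in controls to 4.79, 4.87 and 4.58 in manganese, below every control. Its log2 fold change was -0.62 ± 0.19 (SE), with a limma adjusted p of 0.287, and -0.21 against control 2. SLC7A10, a neuronal serine and glycine exchanger, differed by 0.26, and by 0.056 against control 2. The glutamate carriers SLC1A7 and SLC1A1 differed by 0.24 and -0.41, with adjusted p of 0.498 and 0.541 in the limma fit. Against control 2 they were at 0.076 and -0.23, and without control 1 at 0.091 and -0.10.

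The second list held 40 lysosomal transporters and genes through which amino acids act on the kinase mTORC1, which drives growth when amino acids are plentiful. Of 37 tested none passed, 5 were higher and 6 lower at an unadjusted p under 0.05, against 5.97% and 6.85% of all genes, and the median was -0.08. DDIT4, an inhibitor of mTORC1, went from 9.86, 10.24 and 9.83 to 10.85, 11.15 and 10.78, which is 0.95 ± 0.15 (SE) higher on the log2 scale, at a limma adjusted p of 0.107. It passed without control 2, at 1.08 with an adjusted p of 0.0395, and was at 0.69 against control 2 alone. SESN2, a leucine sensor that also restrains mTORC1, differed by 0.66 (limma adjusted p 0.264), and by 0.34 against control 2. The lysosomal protein SLC7A14 differed by 0.55, although its second probe set gave -0.05. MTOR, the kinase itself, differed by -0.70 (limma adjusted p 0.268), and by -0.26 against control 2. Its other probe set that passed the filter gave -0.36. Of the list's groups 4 were higher and 6 lower without overlap, where 10.5% and 9.26% of all genes were.

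Regulators known to act on the transporter genes formed the third list, with 26 of 27 tested, 4 higher and 2 lower at an unadjusted p under 0.05 (5.97% and 6.85% of all genes), and a median of 0.00177. ATF3, a stress-inducible factor that binds the same kind of element as ATF4, was the only gene of the 4 lists past the threshold. ATF3 rose by 1.39 ± 0.12 (SE) with a limma adjusted p of 0.00597. Against control 2 it was at 1.34, and a further probe set of ATF3 gave 0.16. Without control 3, or without any 1 manganese array, its limma adjusted p was 0.0612 to 0.0741 and it did not pass. Nor did ATF3 pass in the fit with spike-in level as a term, at a limma adjusted p of 0.105. ATF4 was at 11.10, 11.29 and 11.31 in controls and at 11.48, 11.60 and 11.64 in manganese. The manganese arrays of ATF4 lay above all controls, with a log2 fold change of 0.34 ± 0.11 (SE), a limma adjusted p of 0.304 and a difference of 0.28 against control 2. That was the only ATF4 probe set to pass the filter, and its type is marked as able to bind other transcripts. With that type left out ATF4 was not tested. CEBPB, a partner of ATF4 on these elements, differed by 0.43 (limma adjusted p 0.331), and by 0.23 against control 2. DDIT3 at 0.10, TRIB3 at 0.13 and NFE2L2, which encodes NRF2, at 0.11 had overlapping groups and adjusted p of 0.698 or more in the limma fit. DDIT3 read 4.46 to 4.96, near the 40th percentile of the arrays, and its other probe set that passed the filter gave -0.08. NFE2L2 was at 0.24 against control 2. MYC was below all controls on all manganese arrays, from 11.11, 11.31 and 11.07 to 10.79, 10.76 and 10.75. Its log2 fold change was -0.40 ± 0.11 (SE), with a limma adjusted p of 0.251, and -0.55 against control 2.

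The last list held 44 genes for enzymes that make or use the transported amino acids, of which 33 were tested. None passed, 2 were higher and 3 lower at an unadjusted p under 0.05, where 5.97% and 6.85% of all genes were, and the median was -0.0046. CHAC1, which degrades glutathione and is a known target of ATF4, went from 8.30, 8.45 and 8.77 to 9.50, 9.29 and 9.15. All manganese arrays lay above all controls, with a log2 fold change of 0.81 ± 0.15 (SE), a limma adjusted p of 0.138 and a difference of 0.86 against control 2. ASNS, the asparagine synthetase gene and another known target of ATF4, differed by 0.18 with overlapping groups. It was at 0.43 against control 2, at 0.34 without control 1 and at 0.058 without control 2. ODC1, which makes polyamines from ornithine, differed by -0.63, and by -0.19 against control 2. The serine synthesis gene PSAT1 differed by -0.35, and by -0.17 against control 2. Its 8 probe sets that passed the filter ranged from -0.49 to -0.0091. The aspartate transaminase gene GOT1 differed by -0.26. The limma adjusted p of these last 3 genes was 0.304, 0.340 and 0.383.

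**Figure D5:**
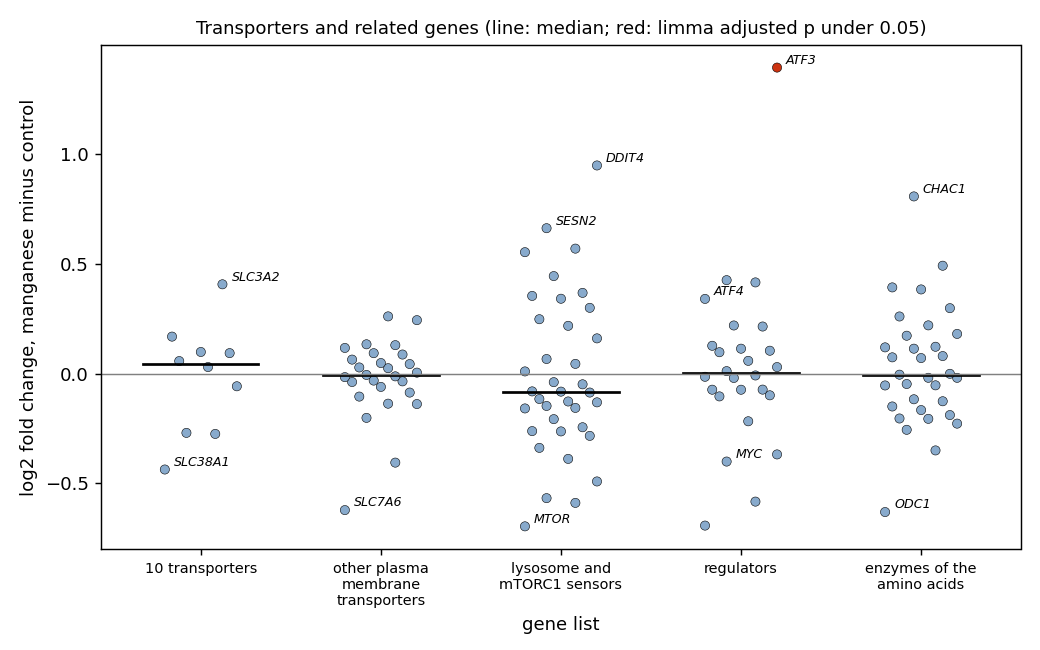
Log2 fold change, manganese minus control, of every tested gene in the set of 10 transporters and in the 4 lists of related genes, with the median of each as a black line and genes past a limma adjusted p of 0.05 in red. ATF3, at 1.39, is the single red point, and the medians lie between -0.08 and 0.04.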

How the data were processed

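Total RNA of 6 SH-SY5Y cultures was measured on 6 Affymetrix arrays, with biotin-labelled cRNA from 6 µg per the labels. The authors deposited log2 values for 49395 probe sets, and the submitters' processing notes name RMA and Affymetrix Expression Console, without versions. RMA removes any shift in signal that most genes share. The platform annotation gave 1 symbol for 44988 probe sets, several for 1832 and none here for 2473, beside 102 controls, and 44961 matched RefSeq (GRCh38.p14) by Entrez number.

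The filter kept the 29871 probe sets whose signal exceeded the array's 40th percentile on 3 or more arrays. The brightest probe set stood for each of 13407 genes. Genes and probe sets were each fitted by limma (version 3.58.1, R 4.3.3; lmFit and eBayes) with group alone as a term, two-sided, with Benjamini-Hochberg adjustment over all features tested and a threshold of 0.05. The fit was tested on simulated arrays with independent noise for each gene, without effects shared by the genes of an array. Precision is limited by having 3 arrays a group.

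The genes and lists were chosen with earlier results of these data known. All 10 transporters are named, with up to 4 genes of each other list by smallest p and ATF4, DDIT3, TRIB3, NFE2L2, ASNS and CHAC1 whatever their values. Alternatives changed the filter, variance model, array weights, scaling, probe set choice, threshold, replicate block and the arrays used. Leaving out probe sets of the x type was added after seeing the data.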

Additional observations from a re-analysis of the deposited data

How the results depend on the processing

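The direction of SLC3A2 was positive under all 20 alternatives, from 0.25 to 0.48, and it did not pass except with array weights. These are not 20 separate checks of direction. The changes of filter, variance model, threshold and replicate block left its fold change at 0.41. Spike-in level as a term and control 2 alone gave the same 0.25. The count of transporter genes and of transporter probe sets past the threshold remained 0 under every alternative but array weights, including each of the 6 fits without 1 array. With array weights, whose estimate stopped before it converged and gave control 3 a weight of 8.22 against 0.15 for control 1, limma called 3945 genes, 4 transporters (SLC3A2, SLC7A1, SLC38A1 and SLC38A2), 7 transporter probe sets and 39 genes of the 4 lists. In that fit SLC7A11 was at -0.11, SLC7A5 at -0.13, SLC1A5 at -0.011 and NFE2L2 at -0.0032, with turned signs. Of the 4 lists 1 gene passed in the fit reported, and 4 with arrays centred on housekeeping genes (ATF3, DDIT4, MTOR and CHAC1). With spike-in level as a term 0 passed, and without 1 array 0 to 2. Over all genes limma called 18 higher and 1 lower, against 145 and 158 with housekeeping centring. In all that is 19 against 303, with 31 at an adjusted p of 0.10, 2 with spike-in level and 0 to 43 without 1 array. No centring moved the median of all genes by over 0.1.

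Against control 2, and with spike-in level as a term, which gives the same fold changes, the signs turned for SLC7A1 at 0.064, SLC1A4 at 0.11, SLC38A1 at 0.14, SLC38A2 at 0.054, SLC43A2 at -0.13 and TRIB3 at -0.12. SLC1A4 was at 0.25 with the most variable probe set and at 0.069 with the mean of its probe sets. Without 1 array the ranges that crossed 0 were -0.021 to 0.15 for SLC7A11, -0.037 to 0.25 for SLC7A5, -0.041 to 0.11 for SLC43A2, -0.14 to 0.059 for SLC1A4, -0.037 to 0.25 for TRIB3 and -0.040 to 0.21 for DDIT3. None of these genes passed in the fit reported. Without control 1, SLC7A11 was at -0.021, SLC7A5 at -0.037, SLC43A2 at -0.041 and TRIB3 at -0.037, without control 3 SLC1A4 was at 0.059, and without manganese 2 SLC43A2 was at -0.011 and DDIT3 at -0.040. Apart from the array weights the cause of these turns was not tested.

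The replicate numbers are shared by the groups, but arrays with the same number did not deviate together over genes (r = -0.30, 0.15 and -0.27), and no array correlated best with its own number. With the replicate block limma called 6 genes in place of 19 and 0 transporters, with SLC3A2 at an adjusted p of 0.431. Values near the 40th percentile of the arrays are limited by background. This concerns the dim probe sets of SLC7A11, SLC7A1, SLC7A8, SLC38A1, SLC38A2 and SLC43A2, and the reading of DDIT3.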
